A study of Homo sapiens with 6 samples.

Results

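The first response of DU145 cells to hepatocyte growth factor (HGF) was read from the arrays hybridised with RNA taken 2 hours after stimulation. They are 2 of the 6 Affymetrix U133plus2.0 arrays of the study and were chosen by the time point in their labels, 1 array with HGF and 1 with vehicle. DU145 is an androgen-independent prostate cancer cell line, so every value comes from cultures of 1 established line. Cells of all groups were moved to RPMI medium with 5% Dextran Charcoal treated serum on the day before vehicle or HGF at 25 ng/ml was added for 2, 8 or 24 hours. No condition was repeated. A ratio between an HGF array and a vehicle array therefore comes without replicate error and without a test, and precision is limited throughout by the number of arrays.

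HGF binds the receptor tyrosine kinase c-MET, which signals through the RAS-ERK cascade, PI3-kinase and STAT3. Growth factors of this kind first switch on immediate early genes, which need no new protein to be transcribed and often encode transcription factors. Among the genes that follow are phosphatases and RNA-binding proteins that shut the same signal off again, and secreted factors that act on neighbouring cells.

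Signals were brought to a mean of 150 on each array, and those under 30 were raised to that floor. For each probe set the signal with HGF was divided by that with vehicle, and the log2 ratios were averaged over the probe sets of a gene. A probe set under the floor in both arrays enters this mean as unchanged and makes it smaller in size. A gene was called higher or lower if 1 or more of its probe sets differed by 2-fold or more and the mean over all of them by 1.414-fold or more in that direction. Of 19775 genes with a probe set of their own, 10159 were above the floor in at least 1 of both arrays. With HGF, 83 genes were higher, which is 0.817% of these, and 11 were lower, which is 0.108%. The called genes were 94 in all. The filter takes in a gene that is under the floor with vehicle only if it is above it with HGF, and 7 of the 83 genes came in that way. The same holds for members of the gene lists described here, so that their medians and counts are descriptions only. The lists and their members were also chosen with earlier results of these data known. The shares over all genes, 0.817% higher and 0.108% lower, stand beside each count of called members. For 19 of the higher and 2 of the lower genes a probe set was at the floor on one side, so that their ratio is a bound.

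The response was one-sided. The mean ratio was at least 1 on the log2 scale in 50 genes and at most -1 in 6 genes, and its largest values were 2.34 and -1.35. The median over the 83 genes was 1.15, or 2.21-fold. Over all genes above the floor the median was -0.04, and 95.5% of them lay within 0.5 of 0.

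Differences between vehicle arrays show what the rule takes without HGF. Between 2 and 8 hours with vehicle the rule took 0.542% of the genes as higher and 0.377% as lower, and between 2 and 24 hours 0.273% as higher and 2.24% as lower. The higher side of the HGF ratio thus held more genes than that of either vehicle comparison, while the 11 genes on the lower side were fewer than in both. The sizes differed more than the counts. A mean log2 ratio of 1.5 or more was reached by 18 genes with HGF, by 3 genes between vehicle arrays of 2 and 8 hours and by 0 between those of 2 and 24 hours. These comparisons share the vehicle array of 2 hours.

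**Figure D1:**
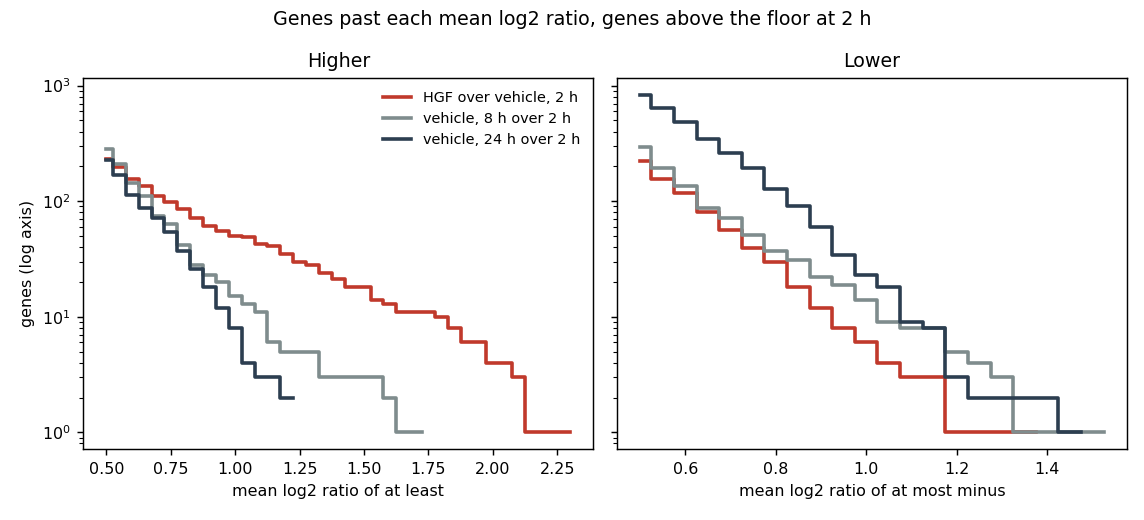
Number of genes (vertical axis, log scale) whose mean log2 ratio is at least the value on the horizontal axis (left) or at most its negative (right), for HGF over vehicle at 2 hours and for the vehicle arrays of 8 and 24 hours over that of 2 hours. Lines are drawn for genes above the floor at 2 hours, so genes above it only in a later vehicle array are left out. To the right of 1 on the left panel the HGF line lies above both vehicle lines. With the genes above the floor in each comparison, the counts at 1 were 50 against 15 and 9. On the right panel the HGF line lies at 6 genes against 14 and 23 at 1.

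Arrays of both conditions were of like quality at 2 hours. Between 35.2% and 35.6% of the probe sets were above the floor, and the ACTB control probe sets gave a 3'/5' ratio of 1.17 for the vehicle and 1.13 for the HGF array. The added control transcript DapX-3 read 2322 with vehicle and 1152 with HGF after scaling, and its part in the ratios was not tested. Epithelial markers were above the floor in 9 of 12 cases. Of 8 prostate luminal markers only KLK3 and STEAP2 were, and ACP3, FOLH1, KLK2, MSMB, SLC45A3 and TMPRSS2 were under it in both arrays. Above it were also 1 of 10 fibroblast markers (COL1A1), 1 of 8 leukocyte markers (ITGB2), 0 of 8 endothelial and 0 of 3 erythroid markers. The summed signal of all fibroblast probe sets was 280.7 with vehicle and 318 with HGF, and that of the leukocyte probe sets 438 and 435.

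Zinc finger factors of the EGR family and the orphan nuclear receptors of the NR4A family were among the higher genes. Their ranks by ratio ran from 4 (EGR1) to 62 (EGR4) of 83. The list of EGR, NR4A and IER genes also held CSRNP1, NAB1, NAB2 and SRF. Of its 14 members above the floor 12 were higher, against 0.817% of all genes, and the median log2 ratio of the 14 was 1.15. EGR3 and EGR4 were under the floor with vehicle and could not have been lower. The brightest probe set of EGR1, the best known of the family, read 521 with vehicle and 2836 after stimulation, against 246 and 320.0 in the vehicle arrays of 8 and 24 hours. The ratios of its 3 probe sets were 1.02, 2.44 and 2.70 on the log2 scale. EGR3 read 85.8 with HGF and was at least 2.86-fold higher. EGR4 read 116 with HGF in its brightest probe set. Both were under the floor in all 3 vehicle arrays in these probe sets. NAB2, a corepressor that binds EGR proteins, was 2.21-fold higher, while SRF, the serum response factor that drives several of these genes, had a log2 ratio of 0.39 and was not called.

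The promoter of EGR1 is shown because it alone among the windows of the higher genes held a CArG box, the sequence bound by serum response factor. The stretch lies at chr5:138465229-138465478 on the plus strand of GRCh38.p14 and ends 1 base before the RefSeq transcription start, with both matches to the CArG box in capitals.
EGR1: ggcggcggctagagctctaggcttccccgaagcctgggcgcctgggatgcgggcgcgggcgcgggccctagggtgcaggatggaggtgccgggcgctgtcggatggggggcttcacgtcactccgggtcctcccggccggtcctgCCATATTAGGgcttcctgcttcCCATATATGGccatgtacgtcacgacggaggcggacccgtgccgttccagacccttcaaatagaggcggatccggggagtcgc
The matches began 105 and 83 bases before the start. A match describes the letters of this window, and binding was not measured. Windows reached 250 bases before a start, and 16 of the higher genes had none. Other genes are therefore not shown to lack a CArG box.

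All members of the NR4A family were higher. NR4A2 (NURR1) read 114 with vehicle and 360.0 with HGF, against 85.7 and 100.8 in the later vehicle arrays. Its mean ratio over 3 probe sets was 3.56-fold. NR4A3 read 72.2 with vehicle and 383 with HGF in its brightest probe set, but only 35.3 and 51.6 in the vehicle arrays of 8 and 24 hours. NR4A1 (NUR77) read 118 and 526 in its brightest probe set, while a second one gave a log2 ratio of 0.49 and the other was under the floor. The mean over the 3 was 1.84-fold. In each of the 3 genes the HGF array of 2 hours was above every vehicle array.

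The IER genes, named as immediate early response genes, were higher as well. IER3, a regulator of apoptosis, read 1473 with vehicle and 4003 with HGF in its only probe set. IER2 read 890.1 with vehicle and 1976 with HGF. IER5 was 2.10-fold and IER5L at least 2.07-fold higher. CSRNP1, a nuclear protein known as a target of AXIN1, read 69.3 with vehicle and 307 with HGF, and no vehicle array was above 71.9.

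AP-1 is a dimer of FOS and JUN proteins or their relatives. Of 11 subunits above the floor 7 were higher, against 0.817% of all genes, with a median log2 ratio of 0.74 over the 11. Among the 11 is FOS, which was under the floor with vehicle and could not have been lower. FOS read 13.3 with vehicle and 86.5 with HGF. It was under the floor in all vehicle arrays, so the ratio of 2.88-fold is a lower bound. FOSL1 (FRA-1) read 299 and 936, JUNB 104 and 271. MAFF, a small MAF protein, read 1004 and 2645. FOSL2, JUN and ATF3 had smaller mean ratios of at least 1.80-fold, at least 1.67-fold and 1.48-fold, each over several probe sets. Above the floor were 3 of 4 probe sets of JUN and 2 of 3 of ATF3. BATF3 (log2 ratio 0.30), MAFG (0.26), JUND (0.11) and JDP2 (-0.03) were not called, and FOSB was under the floor in both arrays.

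Other regulators of transcription followed. Of 10 Kruppel-like factors above the floor KLF10 (2.55-fold) and KLF6 (1.53-fold) were higher, against 0.817% of all genes. KLF5 had a log2 ratio of -0.68 and was not called. Of 14 ETS factors 0 were called, with the largest log2 ratios in ETS1 (0.50) and ETV3 (0.39). BHLHE40, a basic helix-loop-helix repressor of the circadian clock, was 2.71-fold higher. KDM6B (JMJD3), which removes methyl groups from histone H3, had a log2 ratio of at least 1.54, with all 5 of its probe sets between 1.39 and 1.72 on the log2 scale. CCNT1, the cyclin of the elongation factor P-TEFb, had a log2 ratio of 0.98 and ELL2, another elongation factor, of 0.59. ARID3B, a DNA-binding protein, was 2.11-fold higher, and SERTAD1, a cofactor of E2F and CDK4, 2.57-fold.

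Factors that pattern tissues in the embryo were among the higher genes. SOX9, which the study follows as a factor of immature prostate cells, read 62.4 with vehicle and 282 with HGF in its brightest probe set, against 73.9 and 52.5 in the later vehicle arrays. LHX1, a LIM homeodomain factor, read 32.0 and 75.5. FOXD1, a forkhead factor, read 366 and 735, but the vehicle array of 8 hours read 560.2. SNAI2 (SLUG), a repressor of E-cadherin, had a log2 ratio of at least 0.88 and was not called. HES1, a target of Notch, read 53.4 and 98.2 in its brightest probe set and stayed under the 2-fold limit. NKX2-1, a homeodomain factor of lung and thyroid, was lower and is described with the lower genes.

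**Figure D2:**
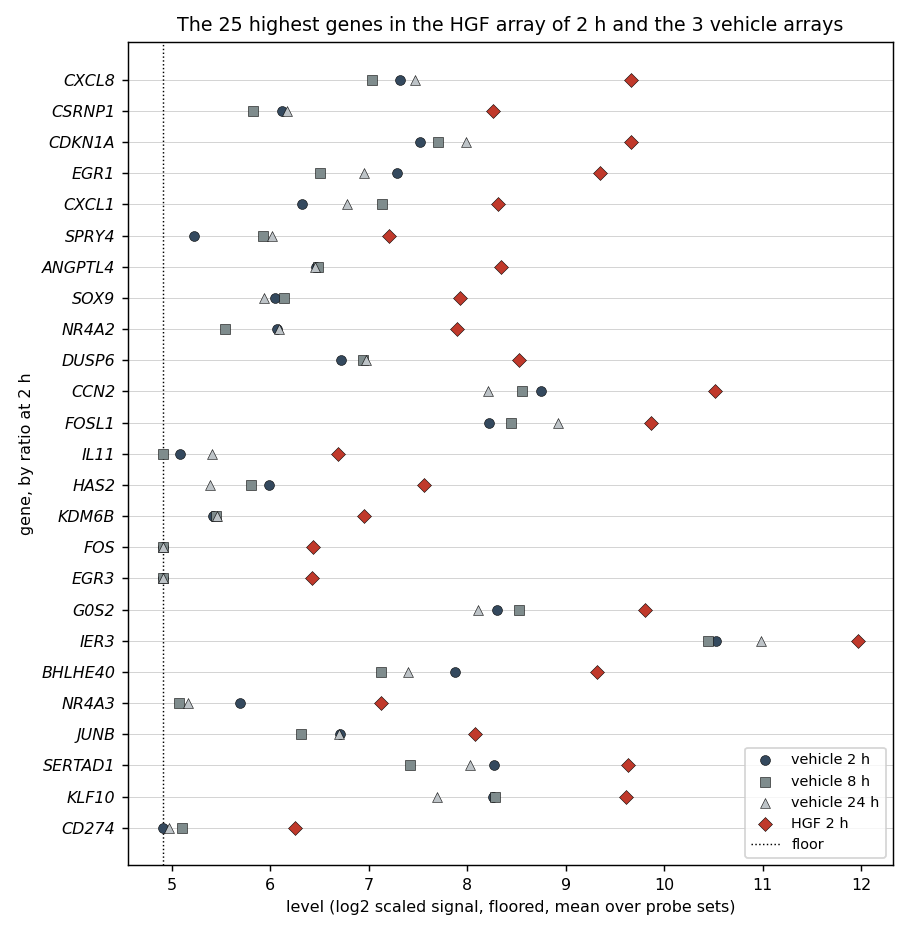
Levels (log2 scaled signal after the floor, mean over the probe sets of a gene) of the 25 genes with the highest ratio in the HGF array of 2 hours (diamonds) and in the vehicle arrays of 2, 8 and 24 hours (circles, squares and triangles), with the floor as a dotted line. In all 25 genes the HGF array lies to the right of every vehicle array. FOS and EGR3 lie on the floor in the 3 vehicle arrays.

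Some inhibitors of the same signal were higher as well. They were 3 of 10 MAPK phosphatases above the floor, with a median log2 ratio of 0.27, and 1 of 14 Sprouty, Spred and receptor feedback genes, with a median of 0.11. Of all genes above the floor 0.817% were higher. DUSP6, a cytoplasmic phosphatase of ERK, read 144 with vehicle and 385 with HGF in its brightest probe set and was 3.51-fold higher over 3 probe sets. DUSP5, its nuclear relative, read 414 and 952. DUSP4 was 1.82-fold higher. The 7 further MAPK phosphatases above the floor were not called, among them DUSP1 with a log2 ratio of 0.43. SPRY4, an inhibitor of RAS activation downstream of receptor kinases, read 37.4 with vehicle and 148 with HGF. The vehicle arrays of 8 and 24 hours read 61.0 and 64.7, so its level was 1.98 above the vehicle array of 2 hours but 1.19 above the highest vehicle array on the log2 scale. SPRY2, a relative of SPRY4, had a log2 ratio of 0.32 and was not called. ERRFI1 (MIG6), a brake of the EGF receptor, missed the rule narrowly, with a log2 ratio of 0.99 in its only probe set. TRIB1, a pseudokinase that targets proteins for degradation, read 172 and 689 in 1 probe set, while its other probe sets were under the floor. RASD1, a RAS-like GTPase, was 2.47-fold higher, and PHLDA1, a pleckstrin homology protein, 2.30-fold with 6 probe sets between 0.46 and 1.73 on the log2 scale.

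Some genes of proteins that destabilise short-lived messengers were higher too. ZFP36 (tristetraprolin), which binds AU-rich elements, read 130 with vehicle and 309 with HGF. ZFP36L1, its relative, was 1.57-fold higher, and TOB2, which recruits the deadenylase complex, 1.53-fold. Above the floor were 2 of 4 probe sets of ZFP36L1 and 2 of 3 of TOB2. The other 11 of 14 decay factors above the floor were not called, and the median of the 14 was 0.05. Of 14 subunits and feedback genes of NF-kB 0 were called. TNFAIP3 (A20) had the largest log2 ratio among them, 0.86.

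Chemokines and cytokines included CXCL8 and CXCL1, which were among the 5 genes with the largest ratios. Of 12 above the floor 6 were higher, against 0.817% of all genes, and the median of the 12 was 0.81 on the log2 scale. Among the 12 are CXCL3, IL24, CSF1 and GDF15, which were under the floor with vehicle and could only have a ratio above 0. CXCL8 (interleukin-8), which attracts neutrophils, read 262 with vehicle and 1211 with HGF in its brightest probe set, and 195 and 304 in the vehicle arrays of 8 and 24 hours. Its 2.19 above the highest vehicle array was the widest measured gap of the 83 genes on the log2 scale of the gene level. CXCL1 read 80.1 with vehicle and 319 with HGF, while the later vehicle arrays read 141 and 110. CXCL3 read 21.9 and 68.5, which is at least 2.28-fold higher. CXCL2 narrowly missed the rule: 1 probe set read 137 and 371, and the mean with 2 others under the floor was 0.48 on the log2 scale. CCL20, which attracts dendritic cells and lymphocytes, read 107 and 237. IL11 and LIF, cytokines that signal through gp130, were higher too. IL11 read 38.1 with vehicle and 265 with HGF in its brightest probe set and was at least 3.05-fold higher over both, and LIF read 184 and 438. IL6 had a log2 ratio of 0.44 and was not called.

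CXCL8, CXCL1, CXCL3 and EREG, a ligand of the EGF receptor, lie close together on chromosome 4, with at most 4 steps from each to the next in the order of protein-coding genes. Among the 83 genes no others lay within 5 such steps of each other. Stretches of 30 bases before the starts of CXCL1, CXCL3 and CCL20 are shown because a match to the NF-kB site began 79 bases before the start in each. They were picked after these matches were seen. They are at chr4:73869303-73869332 on the plus strand, chr4:74038750-74038779 on the minus strand and chr2:227813752-227813781 on the plus strand of GRCh38.p14, read 5′ to 3′ from RefSeq, with the match in capitals.
CXCL1: tctggaactccGGGAATTTCCCtggcccgg
CXCL3: tctggagctccGGGAATTTCCCtggcccgg
CCL20: ttgatcaatggGGAAAACCCCatgtggcaa
In CXCL1 and CXCL3 a second match overlaps the first by all but 1 base, so that the capitals run over both. The NF-kB pattern searched was GGGRNNYYCC on either strand, with R for A or G, Y for C or T and N for any base. The window of CXCL8 held no match to this pattern. Sites that differ from it by a letter were not counted, so this does not show that CXCL8 lacks such a site. Its window held an AP-1 match, 137 bases before the start, and so did that of IL11, 96 bases before it.

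RefSeq gave 87 promoter windows, from 250 bases before to 50 bases after a start, for 67 of the 83 genes. The motif of CREB and ATF proteins (TGACGTCA) was found on either strand in 6.90% of them, against 2.91% of the 12333 windows of genes above the floor. The AP-1 motif (TGANTCA) was found in 10.3% and 4.97% of these windows, the TATA box (TATAAA) in 10.3% and 5.79%, the NF-kB site in 19.5% and 13.2% and the EGR motif (GCGNGGGCG) in 20.7% and 15.3%. The ETS motif (CCGGAAGT) was found in 8.05% and 8.13% and the GC box (GGGCGG), whose letters can overlap the EGR motif, in 69.0% and 67.8%. The CArG box was found in 1.15% and 1.14%. Among all 35116 windows the shares were 1.85% for the motif of CREB and ATF, 7.71% for AP-1, 11.5% for the TATA box, 11.3% for NF-kB, 9.43% for EGR, 4.14% for ETS, 45.0% for the GC box and 1.29% for the CArG box. The 6 genes with a TGACGTCA match were EPHA2, LRRC8A, MAFF, PMEPA1, VPS37B and ZFP36L1. Windows of 1 gene overlap, and the windows of the higher genes had a GC content of 65.0% against 64.1% and 57.5% in both backgrounds. The shares are descriptions.

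Growth factors, receptors and matrix proteins made up a further group. HBEGF, a ligand of the EGF receptor, read 299 with vehicle and 876 with HGF in its brightest probe set. Its mean over 4 probe sets, of which 2 were above the floor, was 1.68-fold. EREG read 334 and 809 but 527 in the vehicle array of 8 hours. EPHA2, an ephrin receptor, read 496 and 1226, and EFNA1, one of its ligands, had a log2 ratio of -0.76 and was not called. PTGER4, a receptor of prostaglandin E2, was at least 1.90-fold higher, and HRH1, a histamine receptor, 2.11-fold. CD274 (PD-L1), a ligand that inhibits T cells, read 27.8 with vehicle and 104 with HGF in its brightest probe set and was at least 2.55-fold higher. VEGFA had a log2 ratio of 0.78 and was not called.

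CCN2 (CTGF), a matricellular protein, read 430 with vehicle and 1464 with HGF, and 377 and 295 in the later vehicle arrays. It was the only member called among 16 listed cytoskeleton targets of SRF and YAP above the floor, whose median was 0.04. The EGR, NR4A and IER genes and the AP-1 subunits are not in that list. HAS2, which makes hyaluronan, the ligand of CD44, read 65.4 and 166 in its brightest probe set and was 2.99-fold higher over both. The urokinase receptor PLAUR read 581 and 1286 in its brightest probe set. F3 (tissue factor) read 99.7 with vehicle and 231 with HGF against 159 in the vehicle array of 8 hours. TFPI2, an inhibitor of serine proteases, was 1.89-fold higher. ECE1, which processes endothelin, was 1.62-fold higher, and PLAU, which encodes urokinase, had a log2 ratio of 0.80 and was not called.

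Regulators of lipid and mineral metabolism were also among the higher genes. ANGPTL4, an inhibitor of lipoprotein lipase, read 129 with vehicle and 493 with HGF in its brightest probe set. No vehicle array was above 140.1. G0S2, which inhibits triglyceride lipase inside the cell, read 316 and 896, against 369 and 276 in the later vehicle arrays. STC1, a glycoprotein hormone of calcium and phosphate balance, was at least 2.52-fold higher, and SLC20A1, a phosphate transporter, 1.91-fold. Of 15 glycolysis genes 0 were called, with SLC2A3, a glucose transporter, at a log2 ratio of 0.67.

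Lists of CDK inhibitors and cyclins, growth arrest genes, the BCL2 family and the unfolded protein response held at most 1 called gene each. Over all genes above the floor 0.817% were higher. CDKN1A, which encodes the cyclin-dependent kinase inhibitor p21, read 184 with vehicle and 812 with HGF, against 208 and 253 in the later vehicle arrays. It was the only one called of 10 CDK inhibitors and cyclins above the floor, and CDKN1B (p27) had a log2 ratio of -0.56. Of 13 further growth arrest and p53 target genes 0 were called, among them GADD45A (0.55) and SESN1 (at most -0.64). MCL1, an inhibitor of apoptosis of the BCL2 family, read 2433 and 5320 in its brightest probe set and was at least 1.94-fold higher over 6. DDIT3 (CHOP), a factor of the unfolded protein response, read 122 and 289 and was the only one called of 15 genes of that response. MYC had a log2 ratio of 0.80 and was not called.

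The remaining higher genes have roles in signalling, the cytoskeleton and other functions. ITPKC, an inositol trisphosphate kinase, was 2.29-fold higher and ITPRIP, which binds the receptor of inositol trisphosphate, at least 1.92-fold. VASP and ARPC5L, which act on actin, were 2.15-fold and 1.46-fold higher, and LRRC8A, a subunit of the volume-regulated anion channel, 1.60-fold. VPS37B, of the ESCRT sorting complex, was 2.13-fold higher, ATG16L1, an autophagy protein, 1.43-fold, and the deubiquitinase USP36 at least 1.45-fold. ATG16L1 and STK40 each had 1 of 2 probe sets above the floor. SOWAHC (2.25-fold), YRDC (1.93-fold), DCUN1D3 (1.72-fold), NABP1 (1.57-fold), B3GNT5 (at least 1.56-fold), STK40 (a log2 ratio of at least 0.59) and PMEPA1 (1.42-fold), an inhibitor of TGF-beta signalling, complete the group together with 3 genes whose values call for care. S100A6, a calcium-binding protein, was called through 1 probe set that read 28.8 and 97.9, while its bright probe set read 7346 and 8088. PIP5K1A, a lipid kinase, read 164 with vehicle and 547 with HGF in its brightest probe set but 666 in the vehicle array of 8 hours. MIDN read 28.0 and 118 in 1 probe set against 143 and 116 in the later vehicle arrays.

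**Figure D3:**
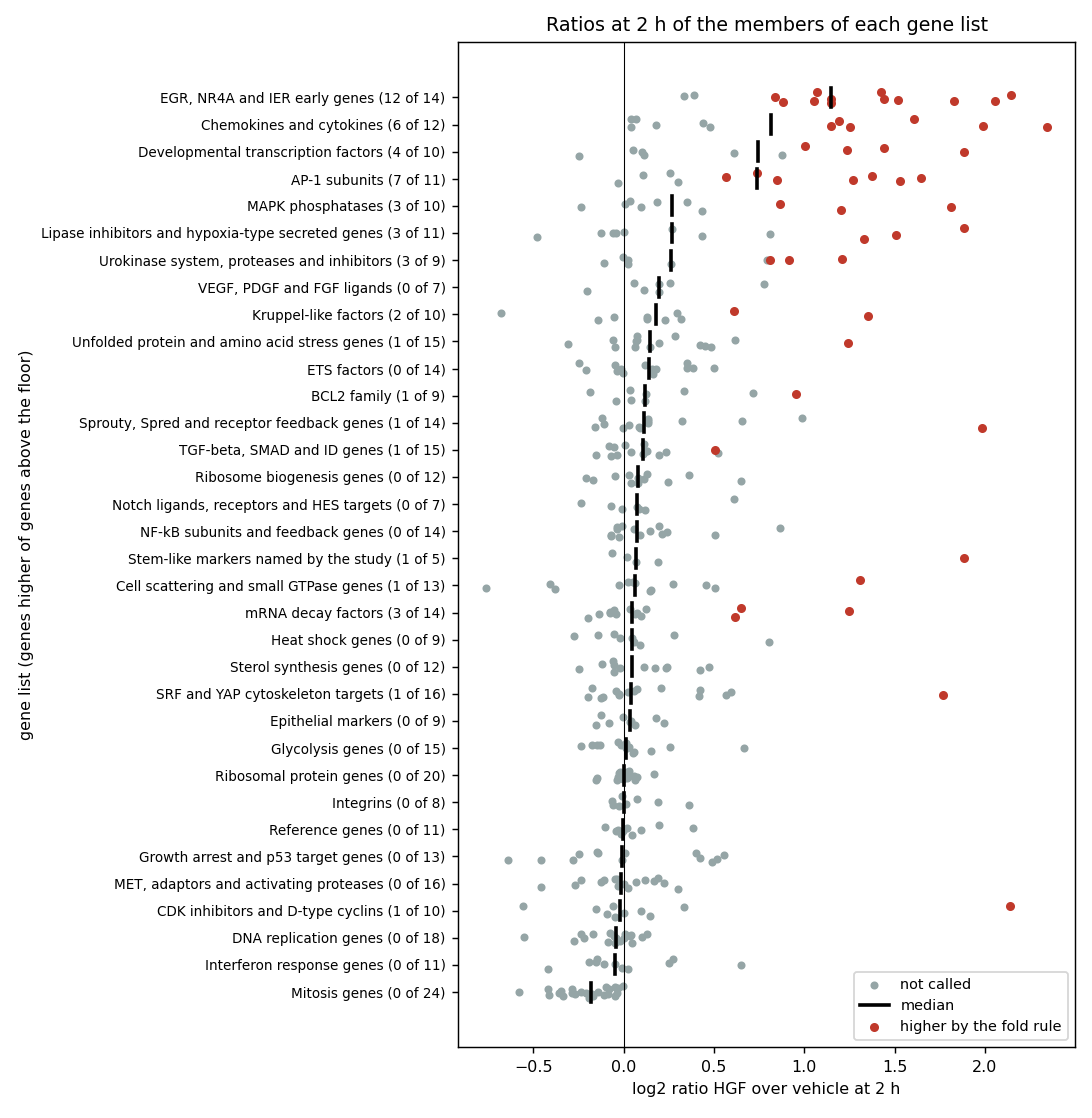
Log2 ratio of HGF over vehicle at 2 hours (horizontal axis) of every member above the floor of the gene lists with at least 5 such members, with the median as a bar and genes called higher in dark red. Numbers in brackets give the genes called higher of those above the floor. The list of EGR, NR4A and IER genes leads with 12 of 14 at a median of 1.15, and also holds CSRNP1, NAB1, NAB2 and SRF. No mitosis gene of 24 lies above 0.

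In no list was a member called lower. The rule took only 0.108% of all genes above the floor as lower, so nothing is read from this. The 24 mitosis genes all had a ratio below 0, with a median of -0.18, while 59.2% of all genes did. Against the vehicle arrays of 8 and 24 hours 11 of the 24 were below 0 and the median was 0.01. The common direction was thus seen with the vehicle array of 2 hours and not with these. The later arrays also differ in time in culture, and the cause of the difference was not tested. The median was 0.00 for 20 ribosomal protein genes and for 11 reference genes, and 0.08 for 12 genes of ribosome biogenesis, with 0 called in each. None was called among 11 interferon response genes, 12 sterol synthesis genes, 9 heat shock genes, 18 DNA replication genes and 8 integrins.

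MET and the markers of stem-like cells that the study follows at later times were measured at 2 hours as well. MET read 1420 with vehicle and 1032 with HGF in its brightest probe set, and its mean log2 ratio over 4 probe sets was -0.23. Of 16 genes of MET, its adaptors and activating proteases 0 were called. ITGA2 had a log2 ratio of -0.06 at 2 hours and 2.32 at 24 hours, and ITGA6 one of 0.19 and 1.84. CD44 had a ratio of 0.07 and CD24 one of 0.02 at 2 hours, and 0.53 and -0.76 at 24 hours. The study prints a larger log2 ratio for CD44 at 24 hours, and the reason for the difference was not tested. NOTCH1 was at -0.07, and JAG1, DLL4, PROM1 and LGR5 were under the floor in both arrays of 2 hours. SOX9 was the only member of this list called at 2 hours.

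Only 11 genes were lower. The lowest was PRAG1, a pseudokinase, which read 161 with vehicle and 63.0 with HGF, and 191 and 152 in the later vehicle arrays. TUBD1 (delta-tubulin) read 216 and 127 in its brightest probe set and was 2.07-fold lower over 3. ZNF580, a zinc finger protein, read 109 with vehicle and 48.5 with HGF, and BTN3A1, a butyrophilin, 100.7 and 36.6 in its brightest probe set. NKX2-1 was at least 1.53-fold lower. TRAF6, an adaptor of NF-kB signalling, was 1.49-fold lower, ATAT1, which acetylates tubulin, 1.47-fold and BBLN 1.44-fold. TRAF6 and ATAT1 each had 1 of 2 probe sets above the floor, and BBLN 3 of 4. The pseudogene ABCA11P read 66.1 and 32.8, close to the floor. DMTN, an actin-bundling protein, read 75.7 with vehicle at 2 hours and 34.1 with HGF, but 33.4 and 39.2 in the later vehicle arrays. RAB42 read 60.8 with vehicle and 24.6 with HGF, but 33.4 and 32.5 in the later vehicle arrays. Of the 11 genes 10 were below all 3 vehicle arrays, DMTN being the exception, and 19.4% of all genes above the floor were. Since the rule took the 11 genes for being below the vehicle array of 2 hours, nothing is read from the difference between these shares.

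The higher genes were also set against the vehicle arrays of 8 and 24 hours. In 81 of the 83 higher genes the HGF array of 2 hours was above all 3 vehicle arrays, against 19.6% of all genes above the floor, and the other 2 were PIP5K1A and MIDN. The rule itself puts the 83 genes above the vehicle array of 2 hours, so this count is largely fixed by it and nothing is read from it against 19.6%. The gap to the highest vehicle array was at least 1 on the log2 scale in 31 genes. After CXCL8 the widest gaps were those of CSRNP1 (2.09), EGR1 (2.06), ANGPTL4 (1.86) and NR4A2 (1.81). As a scale for single ratios, the standard deviation of the ratio between the vehicle arrays of 8 and 2 hours was taken over the 500 genes nearest in level to each called gene. It includes any effect of time in culture and lay between 0.20 and 0.30 on the log2 scale.

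Separate probe sets of a gene read different parts of its messenger. Of the 83 genes, 48 had at least 2 probe sets above the floor, and in all 48 each of these had a ratio above 0. The rule asks for a mean above 0 and so favours this, and among all 4677 genes with at least 2 such probe sets the share was 20.4%. In 31 of the 48 every probe set above the floor was at 0.5 or more. For 35 genes only 1 probe set was above the floor.

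The arrays of 8 and 24 hours show how long the higher genes stayed up. The comparisons of the 3 times share no array. At 8 hours 45 of the 83 genes were called higher, where the rule took 5.08% of all genes, and at 24 hours 30 genes were, where it took 1.99%. The shared genes were 8.47% of the 531 genes higher at 8 hours and 14.7% of the 204 higher at 24 hours. The median log2 ratio of the 83 genes was 0.69 at 8 hours and 0.62 at 24 hours. A ratio above 0 was found in 67 and 74 of them, against 46.7% and 54.0% of all genes above the floor.

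At all 3 times 19 genes were higher. They included the feedback inhibitors DUSP6 (log2 ratios 1.81, 1.81 and 1.91 at 2, 8 and 24 hours) and SPRY4 (1.98, 1.57 and 1.64), the transcription factors EGR1 (2.06, 2.25 and 1.75) and SOX9 (1.88, 2.46 and 2.53), and CDKN1A (2.14, 2.50 and 1.84). STC1 had its largest ratio at 24 hours, with bounds of 1.33, 1.80 and 3.15. CXCL8 had ratios of 2.34, 0.92 and 2.61.

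A further 26 genes were higher at 2 and 8 hours only. Among them were CSRNP1 (2.15, 2.13 and 0.94), FOSL1 (1.65, 2.00 and 0.91), IL11, ZFP36, DUSP5 and NAB2. IER2, IER3, IER5 and JUNB were in this group as well. A smaller group of 11 genes was higher at 2 and 24 hours only, with CXCL1 (1.99, 0.84 and 1.52), CXCL3, DDIT3, LHX1, MCL1, PHLDA1, PTGER4, TFPI2, DUSP4, B3GNT5 and ELL2. CXCL1 at 8 hours was set against a vehicle array with a higher reading, 141 against 80.1. With the limit on the mean rounded to 2 decimals, 1580 genes were lower with HGF at 8 hours, against 11 at 2 hours and 110 at 24 hours. Whether the smaller ratios of this group at 8 hours belong to that pair of arrays was not tested.

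At 2 hours only 27 genes were higher. NR4A2 had log2 ratios of 1.83, 0.38 and 0.25, and NR4A3 of 1.42, -0.14 and -0.26. CCN2 had ratios of 1.77, 0.16 and -0.41 and HAS2 of 1.58, -0.24 and 0.88. CCL20 (1.15, -0.72 and -0.32) and F3 (1.21, -0.56 and -0.22) were below their vehicle arrays at both later times without being called lower. FOS and EGR3, with bounds of 1.53 and 1.52 at 2 hours, and KLF6, KLF10, ATF3 and EGR4 were in this group as well. Falling short of the rule at a later time does not show that the ratio there was 0.

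**Figure D4:**
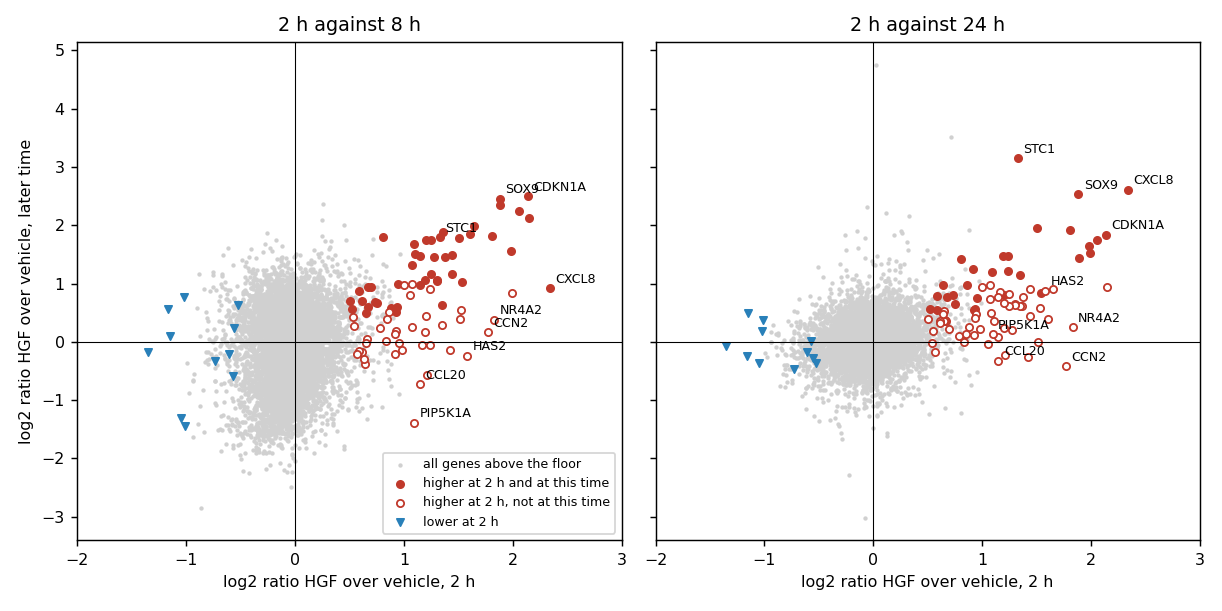
Log2 ratio of HGF over vehicle at 2 hours (horizontal axis) against that at 8 hours (left) and 24 hours (right) for all genes above the floor at 2 hours (grey), with the genes higher at 2 hours in red, filled where they were also called higher at the later time, and the lower ones as blue triangles. Filled points are 45 at 8 hours and 30 at 24 hours. NR4A2, CCN2, HAS2 and CCL20 are open in both panels.

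Of the 11 lower genes, ABCA11P and TUBD1 were also lower at 8 hours, BBLN was higher there, and 0 were called at 24 hours. With the limit on the mean rounded to 2 decimals, 1580 of all 10460 genes above the floor were lower at 8 hours. At 24 hours 110 of 10229 were. Nothing is read from the 11 genes against these shares. Their median log2 ratio was -0.17 at both later times.

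The higher genes were short. Their median span from the first to the last annotated base was 10.2 kb, against 29.9 kb for the 10152 genes above the floor with a RefSeq entry. A span under 10 kb was found in 41 of the 83 genes, or 49.4%, against 21.0%. Over 100 kb long were HRH1 and ECE1, which is 2.41% against 17.2%. The lower genes had a median span of 19.9 kb. The higher genes were not brighter than others with vehicle, with a median scaled signal of 88.4 against 90.6 over all genes above the floor, and reached a median of 218 with HGF.

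**Figure D5:**
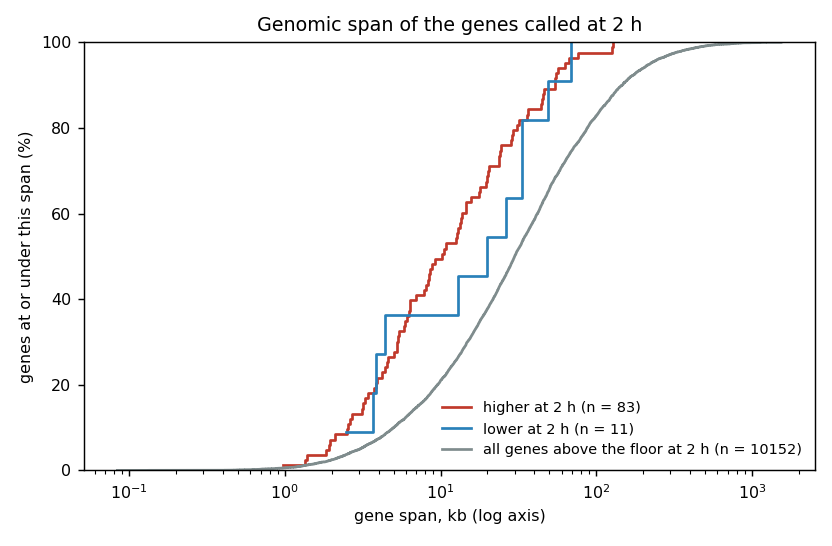
Share of genes (vertical axis, percent) at or under each genomic span (horizontal axis, kb, log scale) for the 83 genes higher with HGF at 2 hours, the 11 lower genes and the 10152 genes above the floor with a span in RefSeq. The curve of the higher genes lies to the left of that of all genes, with medians of 10.2 kb and 29.9 kb.

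Genes near the limits of the rule were close to each other in value. Just inside on the mean log2 ratio were PMEPA1 (0.51), ATG16L1 (0.52), USP36 (0.54), ARPC5L (0.55) and ATF3 (0.57). Just outside on the mean, with a probe set past 2-fold, were CXCL2 (0.48), JMJD6 (0.44), TAGLN (0.42), PLK3 (0.40) and ETV3 (0.39). Just outside on the highest probe set were PHC2 (0.998 on the log2 scale), ERRFI1 (0.986), PLPP3 (0.982), TLE2 (0.98) and LYPD3 (0.969).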

How the data were processed

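RNA of DU145 cells with vehicle or HGF at 2, 8 and 24 hours was hybridised to 1 U133plus2.0 array per condition, and the labels gave the groups. The authors deposited linear intensities for 54675 probe sets, made with MAS5 as named in the submitters' processing notes. Its scaling target is not given in the sources used here. Quantile normalization, a mean of 150 and a floor of 30 are described in the study's methods but are not visible in the deposited intensities. The mean and the floor were therefore set in this work, with quantile normalization as an alternative. Each of the 6 value columns was read.

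Probe sets were named by the platform annotation. Of 42898 listed, 41097 have 1 symbol and 1801 several, which were not used, and 6 control probe sets were left out. Gene IDs of 41037 were found in RefSeq (GRCh38.p14), which changed 0 symbols. Genes were called by the fold rule the study set for 24 hours, with a probe set ratio of 2-fold and a limit on the mean. The study prints that limit to 2 decimals, and it was read here as 1.414-fold, a log2 ratio of 0.5. Whether the study's mean takes in probe sets under the floor, as the mean here does, is not stated. Its printed ratios at 2 hours are larger for genes with such probe sets, such as TRIB1, MIDN and HBEGF. With only probe sets above the floor 92 genes were higher, all 83 among them. With the rounded limit, tried after seeing the data, 532 in place of 531 genes were higher at 8 hours and 206 in place of 204 at 24 hours, with 83 higher and 11 lower at 2 hours as before. Named are the called genes, at most 4 members per list by the size of their ratio at 2 hours, MET and the genes the study names, the 5 genes on each side of the limit of the mean and 5 just short of the limit on the probe set; other genes given as not called, MYC among them, were chosen after their values were seen. Members and the 40 gene lists, with 589 entries of which 57 have no probe set of 1 symbol, were chosen with earlier results of these data known. No test was run, since each condition has 1 array. Alternatives changed the floor, scaling, probe set summary, probe set choice, reference arrays and thresholds. The steps were checked on simulated data. Python 3.11.15 was used with pandas 2.3.3, numpy 2.4.6 and matplotlib 3.10.9.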

Additional observations from a re-analysis of the deposited data

Results flagged for a closer look

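PIP5K1A and BBLN were called in opposite directions at 2 and 8 hours. PIP5K1A had a log2 ratio of HGF over vehicle of 1.10 at 2 hours and -1.39 at 8 hours, and its vehicle level was 1.63 higher at 8 than at 2 hours on the log2 scale. BBLN had a ratio of -0.53 at 2 hours and 0.64 at 8 hours, with a vehicle level that differed by -0.38 between these times. With 1 array a condition the difference between the times was not tested for either gene.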

How the results depend on the processing

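No paired analysis was possible because the comparison at 2 hours has 1 array a side and the labels carry no replicate number. A fit over the 3 times with time as a block would give their shared effect and not that at 2 hours, and was not run. Of 13 alternatives, the rounded limit on the mean not counted, 10 kept the number of higher genes within 1.5 times of 83. It was 132 with a floor of 15, 53 without probe sets ending in _s_at or _x_at, where 20 of the 31 lost genes had no probe set left, and 26 with a threshold of 3-fold. The number of lower genes was less stable: 3 with a floor of 60, 87 with a floor of 15, 18 with only probe sets above the floor, 17 with both later vehicle arrays as reference, 7 with the mean of all 3 vehicle arrays, 0 with a threshold of 3-fold and 27 without a condition on the mean. With the later vehicle arrays as reference 64 of the 83 higher and 4 of the 11 lower genes were called again, and that reference is shared with the ratios of 8 and 24 hours. All 83 higher genes were called again with quantile normalization, centred ratios, a floor of 15, only probe sets above the floor and no condition on the mean. Genes also higher at 8 hours were 24 without _s_at and _x_at probe sets and 12 at 3-fold, those also higher at 24 hours 16 and 9, and those above all vehicle arrays 53 and 24. The log2 ratio of MIDN reversed, to -0.0428 against the later vehicle arrays. The causes were not tested. Of 2093 values of named genes under alternatives 1791 moved by less than the spread between vehicle arrays, and of 520 list counts 466 stayed within 1.5 times. Over 12 alternatives, 3-fold left aside, 42 higher and 2 lower genes were called under each that gave them a value, and the fewest were 6 for ECE1, FOSL2 and USP36 and 5 for RAB42. Signal over background limits genes near the floor, whose ratios are bounds.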
